A study of Mus musculus with 194 samples.

Results

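Transcript levels of 8 genes that encode the CD3 chains and the first signalling proteins downstream of the T-cell receptor were examined in single mouse lymphocytes of known lineage. The genes were taken by name: Cd3e, Cd3d, Cd3g and Cd247 for the CD3 chains, and Lck, Zap70, Lat and Lcp2 for the proximal signalling proteins. All 8 were among the 23420 gene rows of the deposited table. Their levels were read in cells that had not been recorded as doublets and in which at least 1000 genes had a value above 0 TPM, the transcript abundance scaled to a fixed total per library.

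Cells were captured individually in a microfluidic trap array, followed through divisions by time-lapse imaging, released and sequenced with Smart-Seq2, so that kinship and time since division were recorded for most of them. A time was recorded for 94 of the 97 CD8 cells and for all 81 L1210 cells used here, and 7 CD8 and 2 L1210 cells had no relative among them. The CD8 group holds primary CD8+ T-cells from spleens of C57BL/6J mice of both sexes and a range of ages, which were purified with a magnetic CD8a kit, activated for 30 h with plate-bound anti-CD3 (5 μg/mL) and soluble anti-CD28 (2 μg/mL) and then kept in the device with IL2 (100 U/mL). The L1210 group holds a mouse lymphocytic leukemia cell line of the DBA subline 212, grown in the device without activation or IL2. After filtering, 97 CD8 cells in 34 lineages and 81 L1210 cells in 26 lineages remained, with 9 and 7 libraries left out. A lineage here is a set of cells joined by sister and cousin records. The labels name neither a mouse nor a culture, so each group counts as 1 sample, and cell type, strain and culture cannot be told apart.

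The T-cell receptor itself has no enzymatic activity and signals through the CD3 complex. CD3 epsilon, delta, gamma and zeta carry the cytoplasmic tyrosine motifs that the kinase Lck phosphorylates after the receptor binds its ligand. Zap70 docks on the phosphorylated motifs and in turn phosphorylates the adaptors Lat and Lcp2 (SLP-76), on which the calcium and Ras branches of the pathway are assembled. In CD8+ T-cells Lck binds the cytoplasmic tail of the CD8 coreceptor. The anti-CD3 antibody of the activation step engages this complex.

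The coordinates of the genes are given on GRCm38 (mm10). Cd3g (chromosome 9, 44969572 to 44980431, minus strand), Cd3d (chromosome 9, 44981786 to 44987339, plus strand) and Cd3e (chromosome 9, 44998740 to 45009627, minus strand) are neighbours in a stretch of 40.1 kb. Cd3g and Cd3d are divergently transcribed from starts separated by 1354 bases. Cd247, which encodes the zeta chain, lies apart at chromosome 1, 165788681 to 165877277 (plus strand), and overlaps Pou2f1 on the opposite strand. The library method does not mark strand, so reads from that overlap cannot be assigned to either gene by strand. Lck lies at chromosome 4, 129548344 to 129573641 (minus strand), Zap70 at chromosome 1, 36761798 to 36782818 (plus strand), Lat at chromosome 7, 126363824 to 126369570 (minus strand) and Lcp2 at chromosome 11, 34046920 to 34092295 (plus strand).

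The 250 bases before the RefSeq start (GRCm38.p6) are shown for the 3 clustered CD3 genes and for both starts of Lck, because the closest relations between levels described below were between Cd3d and Cd3g and between Cd3e and Lck. Each runs 5′ to 3′ on the strand of its gene, and capitals mark the Ets-type letters CAGGAA or TTCCTG and the Runx-type letters TGTGGT or ACCACA.
Cd3g, chr9:44980432-44980681, minus strand: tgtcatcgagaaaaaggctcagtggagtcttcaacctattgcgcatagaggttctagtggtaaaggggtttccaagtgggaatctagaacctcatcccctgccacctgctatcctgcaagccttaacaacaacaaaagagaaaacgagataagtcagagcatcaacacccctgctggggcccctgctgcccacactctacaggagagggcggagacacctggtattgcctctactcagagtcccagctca
Cd3d, chr9:44981536-44981785, plus strand: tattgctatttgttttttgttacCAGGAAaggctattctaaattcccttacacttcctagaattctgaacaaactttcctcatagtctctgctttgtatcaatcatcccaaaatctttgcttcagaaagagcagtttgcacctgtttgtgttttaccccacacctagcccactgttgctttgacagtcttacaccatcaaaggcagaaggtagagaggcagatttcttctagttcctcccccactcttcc
Cd3e, chr9:45009612-45009861, minus strand: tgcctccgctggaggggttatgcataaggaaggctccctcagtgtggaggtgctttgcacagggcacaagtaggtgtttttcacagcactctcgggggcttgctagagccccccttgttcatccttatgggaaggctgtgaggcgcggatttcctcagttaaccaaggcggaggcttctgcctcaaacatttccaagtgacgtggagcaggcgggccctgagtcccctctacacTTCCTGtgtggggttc
Lck, distal start, chr4:129573642-129573891, minus strand: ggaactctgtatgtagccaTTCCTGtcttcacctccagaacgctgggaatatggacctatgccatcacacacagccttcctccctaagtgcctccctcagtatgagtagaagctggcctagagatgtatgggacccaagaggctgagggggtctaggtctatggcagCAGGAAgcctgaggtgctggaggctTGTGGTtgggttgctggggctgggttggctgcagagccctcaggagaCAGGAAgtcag
Lck, proximal start, chr4:129558373-129558622, minus strand: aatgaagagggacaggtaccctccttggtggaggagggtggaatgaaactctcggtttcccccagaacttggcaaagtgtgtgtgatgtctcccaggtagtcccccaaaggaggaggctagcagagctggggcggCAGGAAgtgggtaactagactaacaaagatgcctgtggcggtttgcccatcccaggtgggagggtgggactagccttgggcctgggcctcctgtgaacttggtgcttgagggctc
The Ets-type letters occurred 1 time before Cd3d, 1 time before Cd3e, 3 times before the distal and 1 time before the proximal start of Lck, and were not found in the window of Cd3g. In comparison, 25.7% of all 32851 RefSeq promoter windows of this length held them on either strand. The Runx-type letters, present in 14.05% of windows, occurred here only before the distal start of Lck. The deposited table has 1 value per gene, so the 2 starts of Lck were not resolved.

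The cell type labels were compared with marker genes. Cd8a was above 0 in 94 of 97 CD8 cells (median 364 TPM), Cd8b1 in 93 (median 806 TPM) and Thy1 in 97 (median 262 TPM), whereas Cd4 did not exceed 1.81 TPM. The sum of 3 helper or regulatory T-cell markers, Cd4 among them, was above 0 in 8 CD8 cells. Its median was 0 and its highest value 37.6 TPM. The summed level of 6 CD8 T-cell markers ranged from 184 to 3732 TPM in CD8 cells and from 0 to 127 TPM in L1210 cells. The sum of 7 B-lineage markers ranged from 485 to 4863 TPM in L1210 cells and from 0 to 283 TPM in CD8 cells, where 5 of the 7 were at 0 in every cell and the signal came from Cd79b (47 cells) and Cd79a (10 cells). Natural killer, myeloid and red cell markers had a median sum of 0 in CD8 cells; in L1210 cells the myeloid markers had a median sum of 13.3 TPM. Detected genes per cell ranged from 2639 to 10905 (median 6862) in CD8 cells and from 1610 to 10454 (median 8402) in L1210 cells; TPM values hold no read depth.

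A single CD8 lineage of 4 cells (CD8_83 to CD8_86) had almost no coreceptor transcript. Cd8b1 was listed at 0 in all 4 cells, Cd8a did not exceed 1.87 TPM and Cd4 was also at 0. These cells nonetheless held the CD3 chains and Lck, with Cd3e at 480, 408, 557 and 549 TPM and Lck at 162, 268, 901 and 224 TPM. Cd3d was at 500, 245, 269 and 371 TPM and Cd3g at 498, 185, 200 and 569 TPM. Cd247 was at 54.4, 59.6, 290 and 35.3 TPM, beside a median of 226 TPM over CD8 cells. Lck was below its CD8 median of 595 TPM in all but CD8_85, and Zap70 was listed at 0 in CD8_86. Without this lineage, all 8 genes stayed more than 4-fold higher in CD8 cells and none of the lineage or time calls on them changed.

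The CD3 chain and signalling genes separated the 2 cell types. All 8 were higher in CD8 than in L1210 cells by the 4-fold rule, against a background of 3.17% of 11371 genes higher in CD8 by as much. All 8 passed the filter on low values in CD8 cells but only 2 did in L1210 cells. The others thus entered only through the group where they are high, and the count is not read as a result about the set. This comparison has no replicate samples and therefore no test; the rule takes the mean over lineages of log2(TPM + 1). For Cd3e and Cd3g, which had no value above 0 in L1210 cells, the size of that difference is set by the pseudocount. For the other genes it also depends on the pseudocount, and all of them but Lcp2 were at 0 in most L1210 cells. The lowest CD8 lineage mean was above the highest L1210 lineage mean for each of the 8 genes.

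Among the CD3 chains, Cd3e encodes the epsilon chain, which pairs with both delta and gamma. It ranged from 2.42 through a median of 571 to 2322 TPM in CD8 cells and was listed at 0 in all 81 L1210 cells. Cd3g, the gamma chain, ranged from 0 through 306 to 1647 TPM in CD8 cells and was likewise listed at 0 in all L1210 cells. No fold change is therefore given for either. Cd3d, the delta chain, ranged from 3.94 through 269 to 1648 TPM in CD8 cells. It was above 0 in 8 L1210 cells, none above 9.22 TPM, with a difference of 7.79 on the log2(TPM + 1) scale. Cd247, the zeta chain that carries most of the signalling motifs of the complex, ranged from 0 through 226 to 559 TPM in CD8 cells and was above 0 in 7 L1210 cells, none above 9.85 TPM (difference 7.34 on the log2(TPM + 1) scale). Summed over the 4 chains, CD8 cells ranged from 25.9 to 3575 TPM (median 1424 TPM) and L1210 cells from 0 to 9.85 TPM, so the sums did not overlap.

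Of the proximal signalling genes, Lck, the kinase that acts first, ranged from 0 through a median of 595 to 1981 TPM in CD8 cells. In L1210 cells it was above 0 in 16 cells with a highest value of 45.7 TPM. The difference was 8.39 on the log2(TPM + 1) scale, and a single CD8 cell was at or below the highest L1210 cell. Zap70 ranged from 0 through 158 to 364 TPM in CD8 cells and was above 0 in 5 L1210 cells, none above 7.47 TPM (difference 6.85 on the log2(TPM + 1) scale). Lat, the membrane scaffold, ranged from 24.8 through 529 to 1044 TPM in CD8 cells and was above 0 in 5 L1210 cells, none above 27.8 TPM (difference 8.67 on the log2(TPM + 1) scale). Lat was also the gene with the narrowest spread between CD8 lineages of the 8.

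Lcp2, the cytosolic adaptor SLP-76, differed from the other 7 in the L1210 cells. It was above 0 in 53 of 81 L1210 cells with a median of 3.72 and a highest value of 43.8 TPM, compared with 1.80, 95.6 and 393 TPM as the lowest, median and highest values in CD8 cells. The difference of 4.42 on the log2(TPM + 1) scale was the smallest of the 8, and 7 CD8 cells were at or below the highest L1210 cell. In 27 L1210 cells Lcp2 was the only one of the 8 genes above 0, and in 19 none was.

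**Figure D1:**
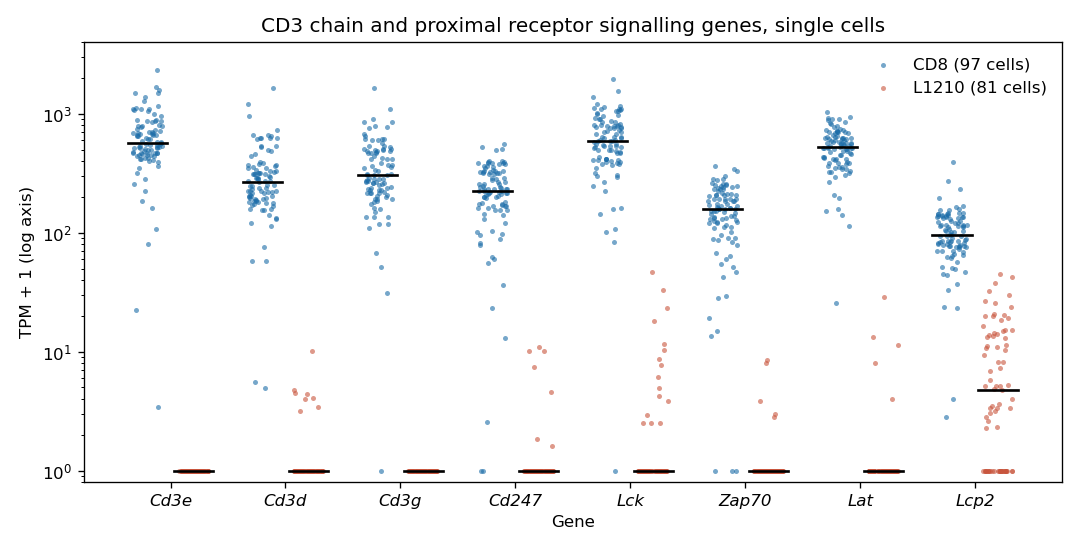
TPM + 1 on a log axis for the 8 genes in 97 CD8 cells (blue) and 81 L1210 cells (red), 1 point per cell with the median as a black bar. CD8 medians lie between 95.6 and 595 TPM, while L1210 medians are at 0 for every gene but Lcp2 (3.72 TPM), and the highest single L1210 values are 45.7 TPM for Lck and 43.8 TPM for Lcp2.

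Of 51 other genes of T-cell receptor signalling, 47 passed the filter in either cell type, of which 17 were at least 4-fold higher in CD8 cells (background 3.17% of all genes) and 1 at least 4-fold higher in L1210 cells (background 10.3%). Their median difference was 0.40 on the log2(TPM + 1) scale, beside -0.59 for all genes and 4.42 to 8.67 for the 6 of the 8 genes with values above 0 in both cell types. The largest differences were those of Skap1, an adaptor of integrin activation (6.87), Ubash3a, a negative regulator of receptor signalling (6.58), and the adhesion receptor Cd2 (6.34). Rasgrp1, the exchange factor that couples diacylglycerol to Ras, had the opposite pattern, with a median of 146 TPM in L1210 and 15.7 TPM in CD8 cells (difference -3.27). All 47 pathway genes passed the filter in CD8 cells but 35 in L1210 cells, so some entered only through the group where they are high. The receptor constant genes Trac, Trbc1 and Trbc2 were not analysed here.

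Within CD8 cells the 8 genes formed a graded order rather than separate steps. TPM values are scaled per transcript length, so levels of different genes can be set side by side. Averaged over 34 lineages on the log2(TPM + 1) scale, Cd3e was highest at 9.07 ± 0.73 (SD), followed by Lck at 9.01 ± 0.86 and Lat at 8.88 ± 0.48. Cd3g followed at 8.25 ± 0.82, Cd3d at 8.08 ± 0.79 and Cd247 at 7.51 ± 0.81. Zap70 at 6.96 ± 0.88 and Lcp2 at 6.47 ± 0.64 were lowest. No gene was separated from its neighbour in this order by more than 1 SD of the paired difference. The closest neighbours were Cd3e and Lck, with Cd3e higher in 15 of 34 lineages (difference 0.06 ± 0.68). Among the clearest steps were those from Lat to Cd3g (0.63 ± 0.79, 27 of 34 lineages) and from Cd247 to Zap70 (0.55 ± 0.72, 27 of 34 lineages).

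In 93 of 97 CD8 cells all 8 genes were above 0. The 4 cells that lacked at least 1 gene were all among the 6 cells with under 4000 detected genes. CD8_34 (2639 detected genes) was listed at 0 for Cd3g, Cd247, Lck and Zap70, with Cd3e at 21.3 TPM, Lcp2 at 1.80 TPM and Cd3d at 4.61 TPM, yet it held Lat at 553 TPM, Cd8b1 at 1292 TPM and Thy1 at 260 TPM. Its 3 lineage mates had Lck between 295 and 401 TPM and Cd3e between 446 and 614 TPM. In CD8_7 (2985 detected genes) Cd3e was the highest of all cells at 2322 TPM while Lat was the lowest at 24.8 TPM. Cd3g (30.2 TPM), Cd247 (12.01 TPM), Zap70 (13.8 TPM) and Lcp2 (2.98 TPM) were low in CD8_7 as they were in CD8_34, whereas Lck was at 1569 TPM. CD8_45, with 5281 detected genes, held Cd3e at 2.42 TPM and Cd3d at 3.94 TPM beside Lck at 592 TPM and Zap70 at 341 TPM. The low genes were thus partly shared between these cells, Cd3e and Cd3d being low in both CD8_34 and CD8_45. Over 97 CD8 cells, Spearman's rho of each gene with the number of detected genes lay between -0.21 (Cd3g) and 0.21 (Lcp2).

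Levels of the 8 genes were then related to each other across CD8 cells, as a description without a test. The cells share libraries of like preparation, and TPM values within a cell are bound to a common total. Over 97 cells the highest Spearman's rho was 0.57, between Cd3e and Lck, and the next was 0.53, between the divergent neighbours Cd3d and Cd3g. Lck ranked 2 among 9994 other genes by its rho with Cd3e, and Cd3g ranked 6 among 9994 by its rho with Cd3d. Over the means of 34 lineages the same pairs reached 0.75 and 0.67, and Lck then ranked 1 for Cd3e. Among the 91 cells with at least 4000 detected genes the values were 0.57 and 0.55.

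The relation of Cd3e to the other CD3 chains was weaker, with rho of 0.30 for Cd3d, 0.33 for Cd3g and 0.27 for Cd247 over cells. Cd247, whose gene lies on another chromosome, was closer to Lck (0.34 over cells, 0.54 over lineages) than to Cd3d (0.02 and -0.01). Zap70 had no rho above 0.16 with any of the other 7 genes over cells, although over lineages it reached 0.45 with Cd247. By that value Cd247 ranked only 1184 among 9994 other genes, whose median rho with Zap70 over lineages was 0.22. Lcp2 did not exceed 0.13 over cells.

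The share of TPM in Rn45s, the ribosomal RNA precursor, moved with some of these levels. It averaged 21.3% ± 8.54 (SD) over 97 CD8 cells, and its rho was -0.50 with Cd3d and -0.34 with Cd3g, but between -0.02 and 0.22 with the other 6 genes. After rescaling TPM without Rn45s, the rho was -0.34 with Cd3d, -0.18 with Cd3g and 0.25 to 0.39 with the other 6. The part of Rn45s in the relation of Cd3d to Cd3g was not tested.

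**Figure D2:**
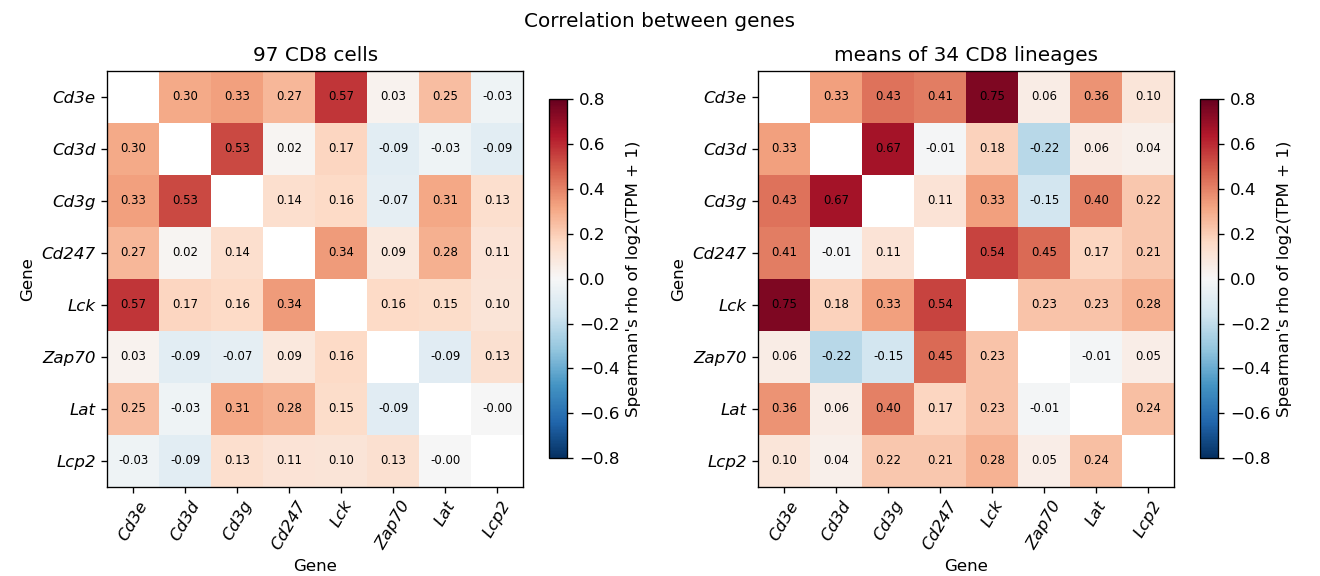
Spearman's rho of log2(TPM + 1) between the 8 genes, over 97 CD8 cells (left) and over the means of 34 CD8 lineages (right); colours run from -0.8 (blue) to 0.8 (red). The pairs Cd3e with Lck (0.57 and 0.75) and Cd3d with Cd3g (0.53 and 0.67) stand highest in both panels, while Zap70 and Lcp2 have pale rows over cells.

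By likeness over the means of 34 CD8 lineages, the genes outside the set closest to the mean of the 4 CD3 chain genes were Cox7a2l (Pearson's r = 0.82), Shisa5 (0.79), H2afv (0.71), Ms4a4b (0.70) and Emb (0.69). Ms4a4b encodes a membrane protein of T-cells and Emb the glycoprotein embigin. Those closest to the mean of Lck, Zap70, Lat and Lcp2 were Nono (0.81), Dnajc7 (0.79), Csnk1a1 (0.77), Actn4 (0.77) and Rrm1 (0.76). The 2 sets of closest genes had no member in common. These are the highest values of a search over all genes that passed the filter, and they carry no p value.

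Lineages were compared to ask whether the progeny of different founders differ in these genes by more than cells of the same founder do. Cells of a lineage share a culture, and in CD8 a mouse, that the labels do not name. A difference between lineages in either cell type therefore cannot be told apart from one of culture or mouse. In CD8 cells none of the 8 genes passed limma's moderated F test over 27 lineages and 90 cells, against a background of 12.9% of 9995 genes with an adjusted p under 0.05. Adjusted p was lowest for Cd3g (0.0928), Cd3d (0.105) and Lck (0.154), and these 3 had an unadjusted p under 0.05 as did 2959 of all genes. It was 0.298 for Cd3e, 0.321 for Lat, 0.483 for Lcp2, 0.666 for Cd247 and 0.715 for Zap70. The intraclass correlation, the share of the variance that lies between lineages, was 0.21 for Cd3d, 0.19 for Cd3g, 0.14 for Lcp2, 0.13 for Lck and Lat, 0.07 for Cd3e and at or below 0 for Cd247 (-0.05) and Zap70 (-0.05). The median over the 8 genes was 0.13, beside 0.09 for all genes. In comparison, the coreceptor genes Cd8a (0.89) and Cd8b1 (0.84) were called, but these values rest largely on the lineage with almost no coreceptor transcript. Without it they were 0.33 (limma adjusted p = 0.0666) for Cd8a, which no longer passed, and 0.47 (adjusted p = 6.78e-05) for Cd8b1, which did.

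This outcome for the 8 genes changed under some other settings, and the cause of the change was not tested. With each gene's values replaced by ranks, Cd3g (adjusted p = 0.00078), Cd3d (0.0016), Lck (0.013), Cd3e (0.015) and Lat (0.015) passed limma's F test, where the background rose to 22% of 9995 genes. In cells with at least 4000 detected genes, Cd3g (intraclass correlation 0.46, adjusted p = 0.0014), Lat (0.37, adjusted p = 0.015) and Lck (0.29, adjusted p = 0.027) passed, against 14.8% of 9972 genes. Cd247, Zap70 and Lcp2 were not called under any setting tried.

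Individual lineages show the spread behind these values. In the lineage of CD8_65 to CD8_68, Cd3g was at 657, 759, 860 and 614 TPM, so that all 4 cells lay above the CD8 median. In the lineage of CD8_87 to CD8_90 it was at 216, 134, 231 and 134 TPM, all below the median. Lat was at 151, 207 and 157 TPM in the 3 cells CD8_92 to CD8_94, far below the median of 529 TPM. The same 3 cells held Zap70 at 205, 302 and 364 TPM, above its median, and the last of these is the highest Zap70 value of all cells. In the lineage of CD8_59 to CD8_62, Cd3e was at 787, 1489, 1498 and 1158 TPM and Lck at 781, 1077, 1207 and 1094 TPM, all above their medians. In the lineage with the lowest Lck mean, by contrast, the mean rests on the 0 of CD8_34. Within lineages the median SD on the log2(TPM + 1) scale was lowest for Lat (0.35) and Lck (0.38) and highest for Zap70 and Cd3d (both 0.59).

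Pairs of cells were also compared, as a description. For Lck the mean absolute difference on the log2(TPM + 1) scale was 0.84 over 43 sister pairs, 0.88 over 72 cousin pairs and 1.09 over 4541 unrelated pairs. Its medians of 0.55, 0.35 and 0.74 instead placed cousins closest. For Cd3g the mean absolute difference was 1.03, 0.88 and 1.17, and for Lat 0.66, 0.53 and 0.73. By these means cousins were at least as alike as sisters for both. For Zap70 it was 1.34, 1.46 and 1.34, with medians of 0.70, 0.70 and 0.74. For Cd247 it was 1.27, 1.39 and 1.33, and the medians of 0.53, 0.71 and 0.74 placed sisters closest.

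**Figure D3:**
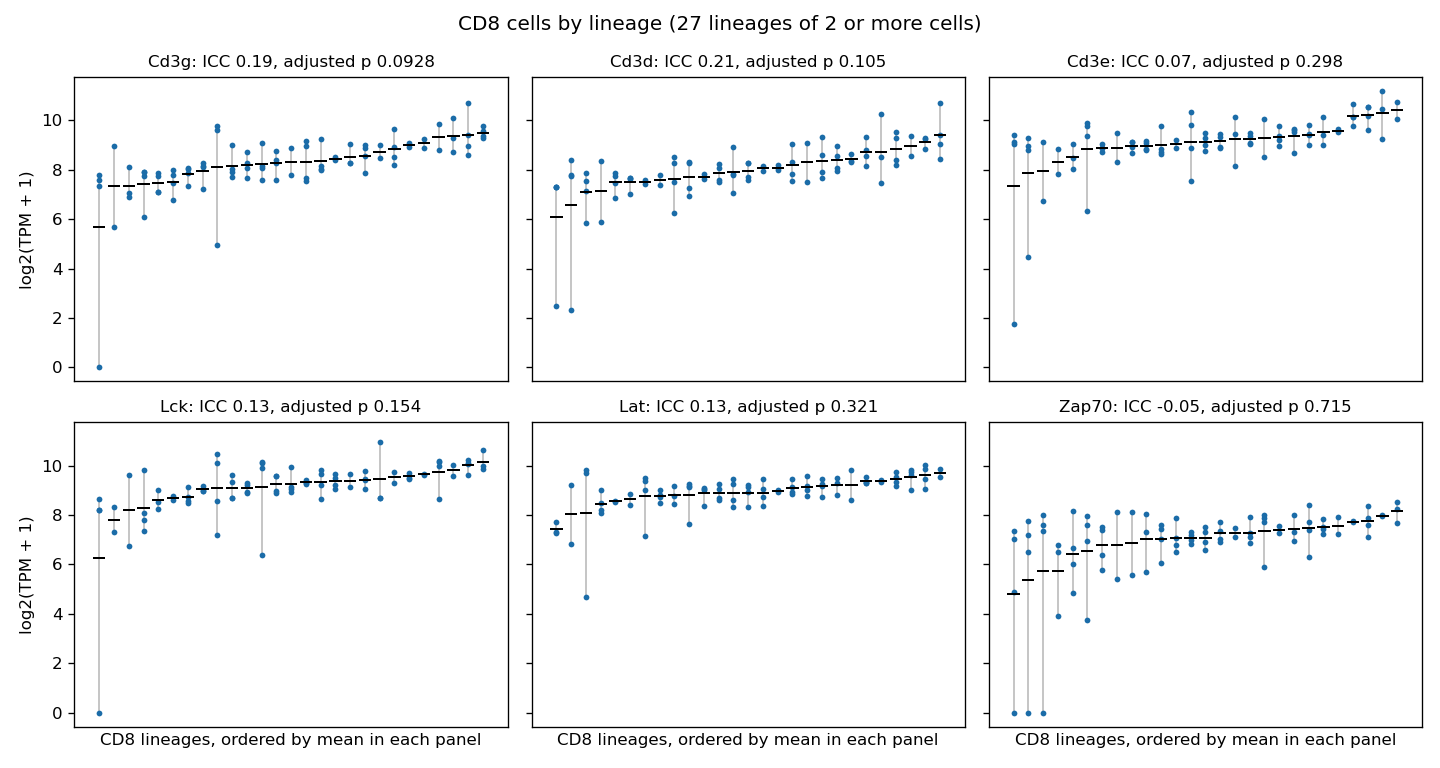
Levels as log2(TPM + 1) of 6 genes in 27 CD8 lineages of 2 or more cells, 1 point per cell, with grey lines for the range and black bars for the mean of each lineage; lineages are ordered by mean in each panel, and titles give the intraclass correlation (ICC) and limma's adjusted p. The lowest means of Cd3g and Lck rest on a single cell at 0, and Zap70 spreads widely within lineages at the low end.

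Among the other receptor pathway genes, 12 of the 47 tested were called over CD8 lineages in the same fit, against a background of 12.9% of 9995 genes, with a median intraclass correlation of 0.16 beside 0.09 for all genes. The highest values were those of Vav1, an exchange factor for Rac (0.47, limma adjusted p = 0.0007), Sla, an adaptor that lowers receptor levels (0.39, adjusted p = 0.0032), and Prkcq, the protein kinase C theta (0.36, adjusted p = 0.0073). The count was not compared with that of the 8 genes by a test.

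In L1210 cells 2 of the 8 genes, Lck and Lcp2, passed the filter on low values. Lcp2 differed between lineages (intraclass correlation 0.33, limma F test adjusted p = 0.018, 24 lineages and 79 cells), against a background of 13.5% of 10534 genes. Lck did not pass (intraclass correlation 0.07, adjusted p = 0.321). Lcp2 was above 0 in every cell of 8 lineages, at 0 in every cell of 3 lineages and mixed in 13. The highest lineage of 3 cells held 8.39, 25.9 and 29.2 TPM and another of 4 cells ranged from 7.26 to 43.8 TPM, whereas all 4 cells of another lineage were at 0 with 6799 to 8391 detected genes each. The mean absolute difference in Lcp2 on the log2(TPM + 1) scale was 1.56 over 38 sister pairs, 1.54 over 62 cousin pairs and 2.10 over 3140 unrelated pairs. Its rho with the number of detected genes was 0.11 over 81 cells. The call for Lcp2 was lost when only the 14 lineages with 4 cells were used (intraclass correlation 0.29, adjusted p = 0.074).

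**Figure D4:**
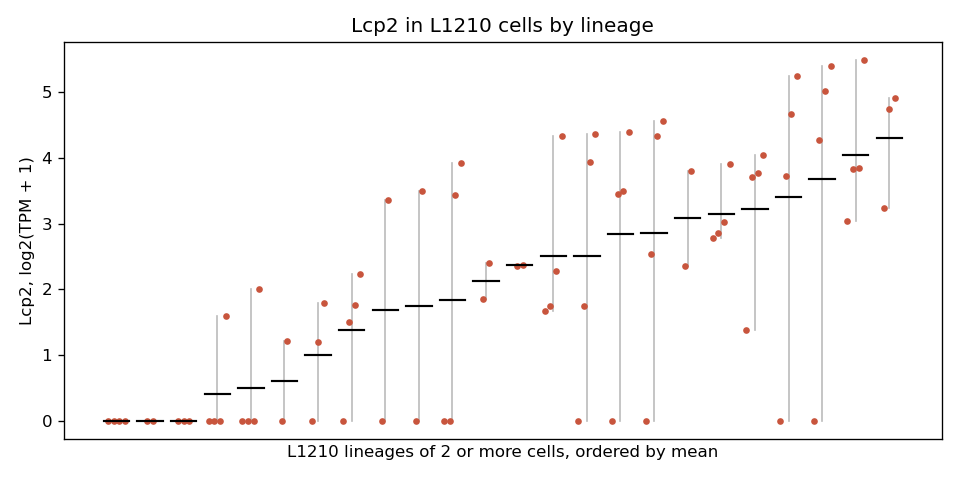
Lcp2 as log2(TPM + 1) in 24 L1210 lineages of 2 or more cells ordered by mean, 1 point per cell, with grey lines for the range and black bars for the mean. In 3 lineages on the left every cell is at 0, while in 8 lineages every cell is above 0.

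Among the other receptor pathway genes in L1210 cells, 6 of 35 tested were called over lineages, against a background of 13.5% of 10534 genes, with Rasgrp1 (0.47), Sit1 (0.43) and Sla (0.43) at the highest intraclass correlations. Sit1 encodes a transmembrane adaptor that dampens receptor signalling.

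Time since the last division was compared to ask whether the 8 genes change as cells move through the cycle. The lineage was the unit, with 31 CD8 lineages of recorded time and cell times from 0.5 to 9.47 h. None of the 8 genes passed limma's test of the slope, beside 0.09% of 9995 genes (9 genes) called. At an unadjusted p under 0.05 there were 1294 genes overall and 1 of the 8, Zap70. Its slope was -0.16 ± 0.06 (SE) per hour on the log2(TPM + 1) scale, with an unadjusted p of 0.015 and an adjusted p of 0.274 by limma. The slope was -0.07 per hour among cells with at least 4000 detected genes (adjusted p = 0.558).

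The cell values for Zap70 show how far that slope goes. The median was 193 TPM in 23 cells under 3 h after division, 145 TPM in 45 cells from 3 to under 6 h and 164 TPM in 26 cells at 6 h and over. The lowest value was 58.9 TPM in the first of these and 0 in the other 2, and the highest values were 331, 285 and 364 TPM. The 3 ranges overlapped almost fully. Lck, in contrast, had medians of 535, 632 and 773 TPM over the same times, with a slope of 0.07 ± 0.06 (SE) per hour that did not pass (limma adjusted p = 0.655, 95% interval -0.05 to 0.18).

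None of the slopes of the CD3 chains passed the test. Cd3e had a slope of 0.01 ± 0.06 (SE) per hour, Cd3g of 0.01 ± 0.06, Cd3d of 0.06 ± 0.06 and Cd247 of -0.06 ± 0.06. Medians of Cd3e were 541, 550 and 639 TPM and those of Cd3g 266, 285 and 368 TPM in the 3 time ranges. Lat (-0.06 ± 0.04) and Lcp2 (0.00 ± 0.06) did not pass either, and the adjusted p over the 7 genes other than Zap70 ranged from 0.598 to 0.991 (limma). Their 95% intervals lay between -0.19 and 0.18 per hour. The median slope of all genes was -0.05 per hour. The rho of hours with detected genes was -0.08 over 94 CD8 cells.

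**Figure D5:**
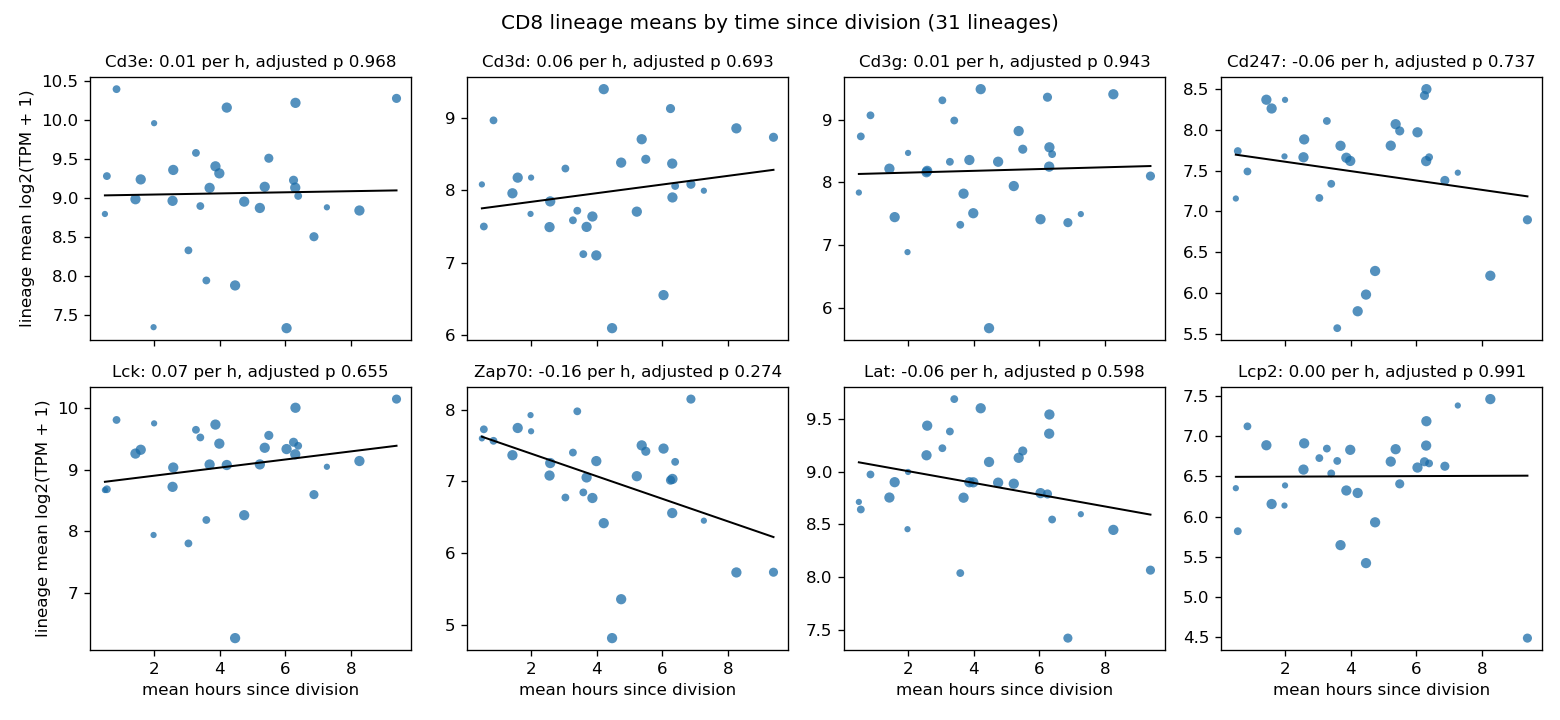
Lineage means of log2(TPM + 1) against the lineage mean of hours since division for the 8 genes in 31 CD8 lineages; point area grows with the number of cells, lines are limma's slopes, and titles give the slope per hour and adjusted p. The line falls for Zap70 (-0.16 per hour, adjusted p = 0.274) and is flat for Cd3e, Cd3g and Lcp2.

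In 26 L1210 lineages none of 10534 genes passed limma's test of the slope on hours (0%), with 588 at an unadjusted p under 0.05. Lck had a slope of 0.04 ± 0.05 (SE) per hour and Lcp2 of 0.01 ± 0.07. The slopes of CD8 and L1210 lineages were compared directly for the 2 genes that passed the filter in both, where 0.0109% of 9158 genes were called. Neither passed, with a difference of 0.03 ± 0.09 (SE) per hour for Lck (95% interval -0.15 to 0.20, limma adjusted p = 0.931) and of -0.01 ± 0.10 for Lcp2 (-0.22 to 0.20, adjusted p = 0.986). None of the 47 receptor pathway genes tested in CD8 cells or the 35 in L1210 cells was called for time.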

How the data were processed

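The deposited table holds TPM values per gene and library. Per the labels and the study's methods, the authors prepared single-cell libraries with Smart-Seq2, sequenced them as short paired reads, and calculated TPM with RSEM (version 1.2.3 in the submitters' processing notes) for UCSC genes on mm10; the notes also name TopHat2, bcl2fastq and GenomeStudio. TPM values are scaled to a common total and hold no depth, so detected genes per cell were used instead.

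Doublets and libraries with fewer than 1000 genes above 0 TPM were removed (9 CD8, 7 L1210). A gene was tested in a cell type where ln(TPM + 1) exceeded 1 in over 10% of its cells. Values were transformed as log2(TPM + 1), with a pseudocount of 1 TPM. Limma 3.58.1 in R 4.3.3 (trended empirical Bayes) was used for the F test over lineages and for slopes of lineage means on hours. It was tested on simulated data. In each test, p was adjusted by Benjamini-Hochberg across all genes that passed the filter, at 0.05. Intervals of slopes are t intervals with the lineages less 2 as degrees of freedom. The levels of the 2 cell types were described without a test, a difference of 2 or more on the log2 scale being called. Lineages and sister pairs were built from sister and cousin links that both cells name. Cousin pairs were any 2 retained cells of a lineage that were not a sister pair. The p-values measure the spread between cells or lineages of these cultures, since the labels name no mouse. The 8 genes and the lists were chosen with earlier results of these data known. The 8 genes are named throughout, and from the lists the 3 with the largest called effect in each direction, plus the 5 most like the CD3 chains and the 5 most like the signalling genes. Gene coordinates are from GENCODE vM21 and promoter windows from RefSeq (GRCm38.p6); all 8 genes matched by symbol. A list gene that this rule would name is not reported here. Cells named singly were chosen after their values were seen.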

Additional observations from a re-analysis of the deposited data

Results flagged for a closer look

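The values below come from CD8 libraries that were left out of all comparisons and that exceeded every retained CD8 cell in at least 1 of the 8 genes. In CD8_12, a library with 714 detected genes, Cd3g was at 13560 TPM and Cd3d at 1828 TPM, while Cd3e, Lck, Zap70 and Lat were at 0. In CD8_79, with 20 detected genes, Lck was at 28708 TPM and the other 7 genes were at 0. The doublet CD8_43 held Cd247 at 639 TPM and Lat at 1083 TPM, and the doublet CD8_63 held Zap70 at 392 TPM, each slightly above the highest retained cell. All 8 genes were at 0 in the 7 L1210 libraries left out.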

How the results depend on the processing

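All 8 genes stayed at least 4-fold higher in CD8 cells under every setting tried, with smaller log2 differences at a pseudocount of 10 TPM (2.70 for Lcp2 to 5.56 for Lck) and larger ones at 0.1 TPM (5.73 for Lcp2 to 11.79 for Lat) among the 6 genes with values above 0 in both cell types. Over all genes, those higher in CD8 numbered 641 and 126, and those higher in L1210 numbered 2927 and 185, at pseudocounts of 0.1 and 10 TPM. For CD8 lineages, limma called 5 of the 8 genes with ranks (2196 of all genes). With at least 4000 detected genes it called 3 (1476 of 9972 genes). It called 2 (Cd3d and Cd3g) at a pseudocount of 10 TPM and 2 (Cd3g and Lck) with detected genes as a covariate. With 4-cell lineages only it called 1 (Cd3g). Numbers of all genes called are not given for these last 3 settings. Their counts are therefore not read as a result about the 8 genes. Ranks limit the weight of extreme values by construction, and the cut leaves out the cells with the fewest detected genes. The part of either in the calls made under them was not tested. For L1210 lineages, Lcp2 was lost with 4-cell lineages only (0 of the 8 genes, 515 of all), and all calls numbered 2176 without the filter, 674 with at least 4000 detected genes and 510 with detected genes as a covariate. Genes called for time in CD8 numbered 5 at a pseudocount of 0.1 TPM, 3 without the filter, 25 with at least 4000 detected genes, 17 with detected genes as a covariate, 19 with weighted lineage means and 23 with single cells and the lineage as a block; none of these was among the 8 genes. In L1210 cells 1 gene was called for time with detected genes as a covariate, and the difference of slopes was called for 2 genes at a pseudocount of 10 TPM and for 2 with that covariate. The cause of these changes was not tested. The setting without the CD8 lineage with Cd8b1 at 0 was chosen after seeing the data. No paired analysis was possible because replicate numbers only name cells and do not match between cell types. TPM values hold no depth, so the precision of a 0 or of a low value in a single cell is unknown.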

Other observations

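The counterpart genes of the B-cell receptor had the reverse pattern. Of 15 such genes, 12 passed the filter in either cell type, and 9 were at least 4-fold higher in L1210 cells, against 10.3% of 11371 genes, and none was higher in CD8 cells. Of the 12, 11 passed in L1210 cells and 5 in CD8 cells, so some entered only through the group where they are high. Cd79a, the signalling chain of the B-cell receptor, had a median of 426 TPM in L1210 cells and was above 0 in 10 CD8 cells (difference -8.31 on the log2(TPM + 1) scale). Plcg2, the phospholipase of that receptor, had a median of 335 TPM in L1210 cells (-7.77). Syk, the kinase that takes the place of Zap70 in B-cells, had a median of 8.47 TPM in L1210 cells and was above 0 in 3 CD8 cells (-2.75); it is named here after its values were seen. Over L1210 lineages limma called 3 of 11 counterpart genes, against 13.5% of 10534 genes, among them Lat2, an adaptor related to Lat (intraclass correlation 0.60, adjusted p = 3.7e-06), and Bank1 (0.34, adjusted p = 0.018). None of the 5 tested in CD8 cells was called.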
